A study of Homo sapiens with 6 samples.

Results

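Each of the 3 conditions of a CaMK2D knockout experiment in MOLM-13 cells was sequenced in 2 libraries, and the titles mark the members of each pair with the letter A or B. The 3 libraries lettered B were compared with the 3 lettered A, of 6 libraries in all, with the condition as a block, so that each B library was set against the A library of its own condition. MOLM-13 is an established human acute myeloid leukaemia line of the M5 (monocytic) class. The control pair (A0, B0) came from cells labelled as control with no doxycycline. The day 3 pair (A3, B3) and the day 5 pair (A5, B5) came from cells with a doxycycline-inducible CaMK2D knockout vector after 3 and 5 days of doxycycline. What the letters stand for is not given: they may mark cultures, infections or preparation rounds, and these cannot be told apart. It is likewise not stated whether the cells of a letter were 1 clone or a pool. Because the knockout libraries differ from the controls in vector and doxycycline together, no effect of CaMK2D itself can be read from the comparison of letters.

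CaMK2D is the delta isoform of the calcium/calmodulin-dependent protein kinase II, a kinase that reads calcium signals. A leukaemia line is a living population: cultures kept apart can come to differ in DNA content, in genes that are stably on or off, and in proliferation and stress programmes. Genes that p53 activates halt the cell cycle or promote cell death when the protein is stabilised, the G1/S genes build the machinery of DNA replication, and interferon-stimulated genes are switched on when a cell senses foreign nucleic acid or receives interferon.

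The libraries held 15456770 to 21081298 counts and 14601 genes passed the filter on low counts. The members of a pair were not repeat deposits: over genes with at least 20 counts in a pair, chi-square divided by its degrees of freedom came to 37.7 in the control pair, 17.4 at day 3 and 23.3 at day 5. Monocytic leukaemia markers summed to 1410 to 5060 CPM (counts scaled to a common library size), erythroid and megakaryocytic markers to 0 to 1.04 CPM, mast cell, eosinophil and basophil markers to 0.671 to 2.08 CPM, lymphoid markers to 44.0 to 127 CPM and epithelial or stromal markers to 17.6 to 34.2 CPM. The lymphoid sum was mostly NKG7 (41.45 to 111.8 CPM), and the epithelial or stromal sum was KRT18 and KRT8, with COL1A1 and VWF at no more than 0.220 CPM. The count data held 5 of 8 lymphoid, 2 of 8 erythroid and megakaryocytic, and 4 of 10 epithelial or stromal markers. The sum for the labelled cell type rested on AZU1, FLT3, CEBPA and SPI1, in the controls also on MPO, and in the controls and the induced B libraries also on LYZ. LYZ was at 139 and 392 CPM in A0 and B0, 33.6 and 178 in A3 and B3, and 19.0 and 229 in A5 and B5. CD14 was at 0.113 to 2.97 CPM and CD68 at 0 in 5 of 6 libraries. The control pair differed from the induced pairs in how its B minus A difference varied with transcript length, with values given at the end. CAMK2D, the targeted gene, was measured at 23.0 CPM in A0 and 14.5 in B0, at 14.7 in A3 and 15.6 in B3, and at 28.98 in A5 and 28.1 in B5. Its B minus A log2 difference was -0.21 ± 0.16 (SE, n = 3 pairs; edgeR adjusted p = 0.557), and neither day 5 library was below its control.

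Nothing in the labels makes the letters separate cultures, so each p-value speaks for the spread of these libraries alone, part of which may be technical. Across the 3 pairs, 595 genes were higher in B and 419 lower at an edgeR adjusted p under 0.05. These are 4.08% and 2.87% of the 14601 genes tested, 6.94% together, the background against which each list below is read. Of the 1014 genes called, 1011 were on the same side in all 3 pairs, 217 were at least 2-fold higher and 87 at least 2-fold lower. The calls were made on these same pairs, so their agreement in side is largely set by the test and is no separate result. The median over all tested genes was 0.00 on the log2 scale. Across the 10190 genes with a mean of at least 5 CPM, the B minus A difference of the control pair correlated with that of the day 3 pair at r = 0.522 and with that of the day 5 pair at 0.446, and the day 3 and day 5 pairs correlated at 0.634. These are descriptions across genes, which are not independent, over pairs that share no library.

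A small set of genes was on in all 3 libraries of 1 letter and at or near 0 counts in all 3 of the other. By a rule set after the data were seen (at most 3 counts in each library of one letter, at least 1 CPM in each of the other), 5 genes were off in A and 2 off in B, all of them protein-coding. OCIAD2, which encodes a mitochondrial and endosomal membrane protein (GRCh38, chromosome 4, 48885019 to 48906937), stood at 1.93, 9.54 and 7.92 CPM in A0, A3 and A5 and at 0 counts in B0, B3 and B5. It was thus at least 128.8-fold lower in B, taking 3 counts over the 3 B libraries as the floor. DYNLT3, a dynein light chain gene on the X chromosome (37836757 to 37847637), had 1.41, 3.28 and 6.57 CPM in the A libraries and 0 in every B library, at least 73.3-fold lower.

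In the opposite direction, IGSF10, an immunoglobulin superfamily gene (chromosome 3, 151425384 to 151458709), had 0 counts in A0, A3 and A5 and 4.17, 7.59 and 9.45 CPM in B0, B3 and B5, at least 121.2-fold higher. It shares exon positions with MED12L, and the reads carry no strand. RAB32, a small GTPase of lysosome-related organelles, had 0 counts in the A libraries and 2.73, 2.25 and 1.75 CPM in B, at least 39.6-fold higher. GAL, the neuropeptide galanin, likewise had 0 counts in A and 1.29, 3.24 and 1.75 CPM in B, at least 35.95-fold higher. JPH2, a junctophilin that tethers the plasma membrane to the endoplasmic reticulum, had 1 count in A0 and none in A3 or A5, against 13.7, 1.92 and 2.79 CPM in B. RNF144B, a ubiquitin ligase gene, completed the set with 0 to 0.104 CPM in A and 1.10 to 1.81 CPM in B. The rule that picked these genes allows no overlap between the letters and covers the control pair. Their lack of overlap, and their on or off state in the control pair, are thus no separate result. In bulk RNA, fewer cells expressing a gene and less RNA per cell cannot be told apart.

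**Figure D1:**
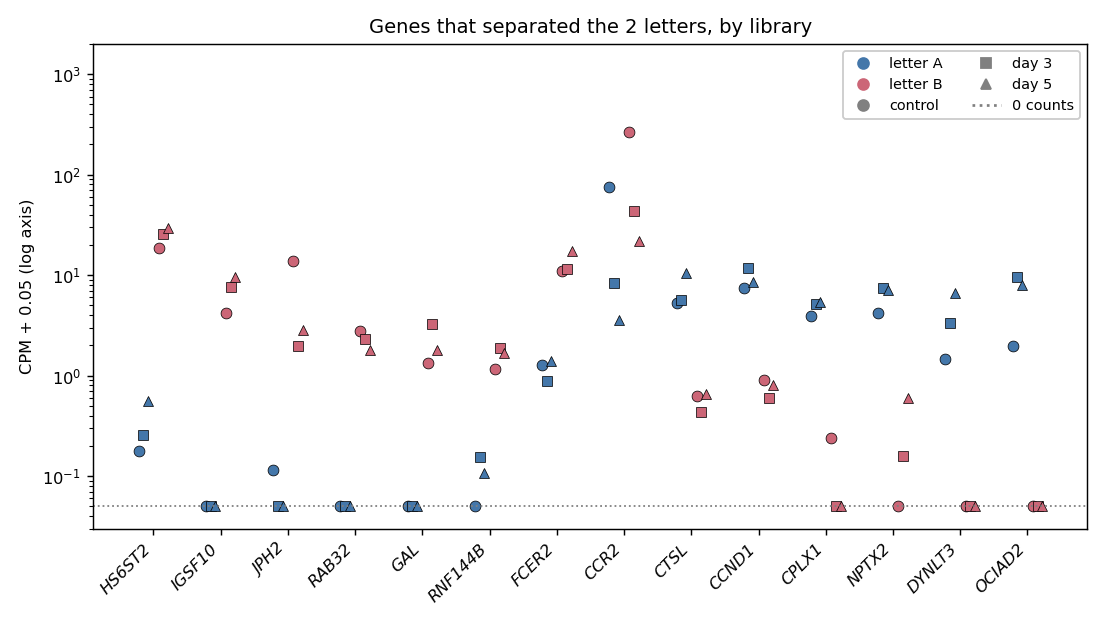
Expression of 14 genes in each library, as CPM + 0.05 on a log axis; blue points are A and red points B libraries, circles, squares and triangles mark control, day 3 and day 5, and the dotted line marks 0 counts. For every gene shown except CCR2, all 3 points of one letter lie above all 3 of the other. The genes shown were chosen for their difference between the letters, so this separation is no separate result. CCR2 was lower after induction in both letters and higher in B within each pair.

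Among genes with a mean of at least 5 CPM, the largest rise was that of HS6ST2, a heparan sulfate 6-O-sulfotransferase on the X chromosome. It was measured at 0.128, 0.209 and 0.509 CPM in A0, A3 and A5 and at 18.5, 25.5 and 29.4 CPM in B0, B3 and B5 (log2 difference 6.42 ± 0.29 SE; edgeR adjusted p = 9.87e-11). The B libraries lay far above the A libraries with no overlap. FCER2, the low-affinity IgE receptor CD23, was at 1.22, 0.834 and 1.36 CPM in A and 11.03, 11.5 and 17.5 CPM in B. CD209, a C-type lectin gene also on chromosome 19, was at 2.31, 0.938 and 1.92 CPM in A and 8.01, 10.3 and 28.9 CPM in B. Both were separated between the letters, by log2 differences of 3.55 ± 0.27 and 3.06 ± 0.37.

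The same selection, which required B above A in every pair, held genes whose level differed widely between control and induced libraries. ALDH1A3, a retinaldehyde dehydrogenase that makes retinoic acid, was at 8.03 CPM in A0 and 70.4 in B0, and at 0.938 in A3, 4.45 in B3, 0.283 in A5 and 4.32 in B5. Levels were lower after induction in both letters, while the difference was 3.01 ± 0.24 on the log2 scale (edgeR adjusted p = 6.03e-07). IL18, an inflammatory cytokine of the interleukin 1 family, was at 6.42 and 26.2 CPM in the control pair, 0.938 and 10.3 at day 3, then 2.43 and 16.1 at day 5. MYO7A (an unconventional myosin), LTBP4 (a matrix protein that binds latent TGF-beta), OLAH (a thioesterase), EEF1A2 (a translation elongation factor), AGK (a mitochondrial acylglycerol kinase) and FAM117A were higher by 2.96, 2.88, 2.74, 2.45, 2.66 and 3.03 on the log2 scale. AGK and FAM117A share exon positions with AC004918.1 and KAT7, so their reads may not be theirs alone.

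Genes of 2 chemokine receptors and of a matrix protease were higher in B. CCR2, the receptor for the monocyte chemoattractant CCL2, was at 75.3 CPM in A0 and 264 in B0, 8.29 in A3 and 43.0 in B3, and 3.57 in A5 and 21.8 in B5. Its level was lower after induction in both letters and higher in B within each pair (2.19 ± 0.14 on the log2 scale; edgeR adjusted p = 4.26e-07). CCR1, a receptor for CCL3 and CCL5, was at 36.4 and 47.9 CPM in the control pair, 11.5 and 26.4 at day 3, then 13.8 and 34.7 at day 5 (edgeR adjusted p = 0.00252). MMP2, a secreted matrix metalloproteinase, was higher by 2.19 ± 0.18 (10.0 and 37.9 CPM in controls, 2.45 and 12.8 at day 3, 4.30 and 21.7 at day 5). The list of monocyte and macrophage genes gave 0 higher and 2 lower of 18 tested, with a median of 0.26. CD36, a scavenger receptor, was lower by 0.73 and FCGR1A, a receptor for immunoglobulin G, by 0.59, and without the control pair neither was called (edgeR adjusted p = 0.144 and 0.221). CD36 was not called without the day 3 pair either (0.0882), nor FCGR1A without the day 5 pair (0.114). MMP2 and CCR1 were selected after their values were seen or as list members, not for the size of their change.

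The largest fall among genes at a mean of 5 CPM was that of PCDH7, a protocadherin, at 7.26, 10.9 and 25.9 CPM in A0, A3 and A5 and 0.384, 3.02 and 2.40 CPM in B (log2 difference -2.97 ± 0.37; edgeR adjusted p = 0.000926). SLC9B2, a sodium/proton exchanger that shares exon positions with BDH2, was at 21.9, 19.4 and 14.1 CPM in A and 1.34, 3.46 and 4.81 in B. The A libraries were all above the B libraries for both genes. KRT81 (a hair keratin), MEGF6, GBP5 (a guanylate-binding protein of the interferon gamma response), TRIM58 (a ubiquitin ligase of red cell maturation), H1F0 (the replication-independent linker histone H1.0), TEAD4 (a partner of YAP), TNR (tenascin R), PDE3A (a cyclic nucleotide phosphodiesterase), ABTB2 and BMP2 (a bone morphogenetic protein) were lower by 1.46 to 2.43 on the log2 scale. BMP2 illustrates the steadier ones, at 31.4, 22.6 and 21.7 CPM in A and 8.20, 8.96 and 10.2 in B (log2 difference -1.46 ± 0.18; edgeR adjusted p = 3.7e-05). Without the day 3 pair, SLC9B2 (adjusted p = 0.206), GBP5 (0.106) and ABTB2 (0.103) were no longer called by edgeR, and TNR was lost without the control pair (0.390).

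CTSL, the lysosomal protease cathepsin L, was at 5.20, 5.63 and 10.5 CPM in A and 0.575, 0.385 and 0.601 in B. CPLX1, a complexin of vesicle fusion, was at 3.92, 5.11 and 5.32 CPM in A, at 0.192 in B0 and at 0 counts in B3 and B5. NPTX2, a neuronal pentraxin on the long arm of chromosome 7, was at 4.11, 7.35 and 7.13 CPM in A and 0, 0.11 and 0.546 in B. Each was separated between the letters. All 3 were picked from the 5 widest falls of the day 3 or day 5 pair, so their gap in that pair is no separate result. WNT3, a secreted Wnt ligand named by the control pair, was at 6.23, 3.13 and 2.94 CPM in A and at 0.527, 0 and 0 in B.

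The calls were not spread evenly over the genome. Genes with a mean of at least 5 CPM were placed in 10 Mb windows by their start in GENCODE 29, a step chosen after the data were seen, and 202 windows with at least 20 such genes were compared by their median log2 difference. The first 10 Mb of chromosome 17 had a median of 0.58, and 93 of its 116 genes were called higher in B with 0 lower. On chromosome 7 the windows of 0 to 10 Mb, 20 to 30 Mb and 30 to 40 Mb had medians of -0.59, -0.60 and -0.52. Every other window lay between -0.15 and 0.16.

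Levels within these segments were shifted nearly as a block. In the 17 segment 115 of 116 genes had a positive difference, with quartiles of 0.46 and 0.75, and the median corresponds to 1.50-fold more RNA in B. Over the first 40 Mb of chromosome 7, 132 of 137 genes had a negative difference (quartiles -0.70 and -0.38; median -0.58, or 1.50-fold more RNA in A), 86 of them called lower and 0 higher. Both shifts stood in every pair: medians in the control, day 3 and day 5 pairs were 0.64, 0.59 and 0.51 on chromosome 17 and -0.59, -0.52 and -0.59 on chromosome 7. Over the rest of chromosome 17 the median was 0.02 (513 genes) and over the rest of chromosome 7 it was -0.02 (370 genes). Within a letter, the segments' medians differed from control to day 3 by 0.03 in A and 0.04 in B on chromosome 17, and by 0.04 and 0.07 on chromosome 7. From control to day 5 they differed by -0.10 in A and -0.18 in B on chromosome 17 and by 0.06 and 0.04 on chromosome 7, beside 0.04 and 0.01 for all other genes at 5 CPM.

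In 2 Mb steps, the shift on chromosome 17 was 0.56 at 8 to 10 Mb, and the next step with at least 5 genes, 14 to 16 Mb, was at -0.01. On chromosome 7 it was -0.57 at 32 to 34 Mb and -0.09 at 38 to 40 Mb. Among genes at 5 CPM, the last called gene before the edge was GAS7 on chromosome 17 and EPDR1 on chromosome 7. Of all genes tested, the segments held 101 of the 595 higher calls (17%) and 88 of the 419 lower calls (21%), and 5.80% of the 14216 genes outside them were called. DNA was not assayed in the files used here, so a change in copy number was not tested.

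**Figure D2:**
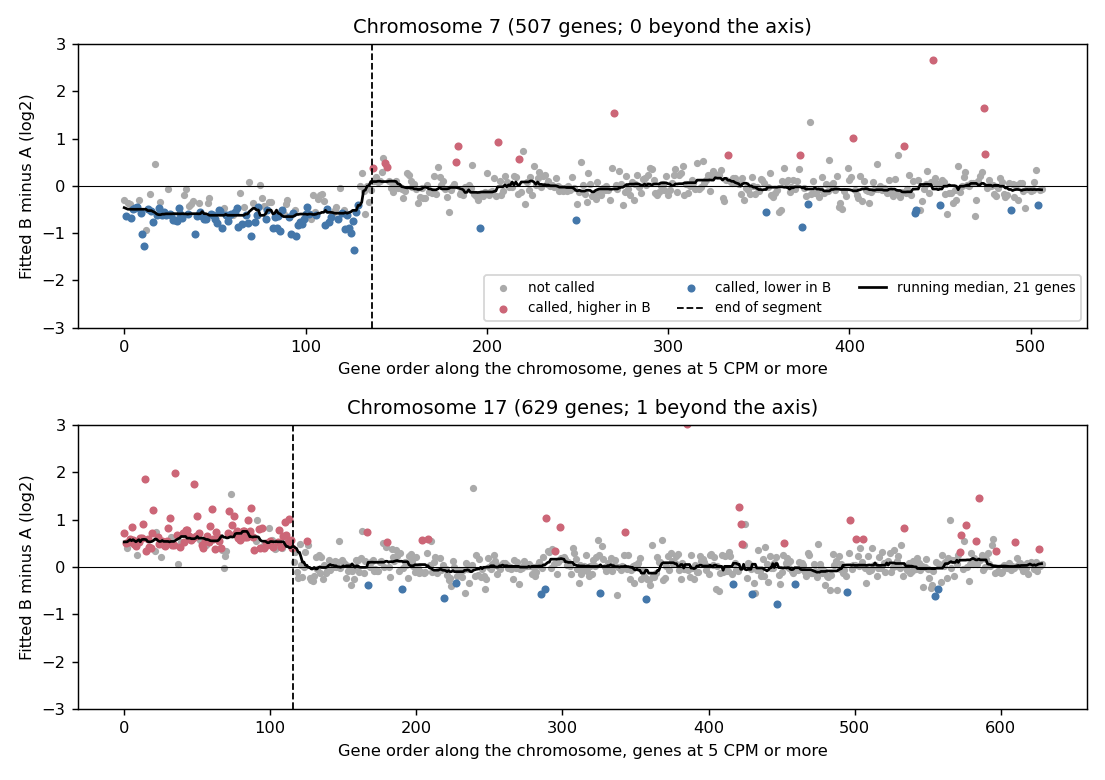
Fitted B minus A log2 difference of each gene with a mean of at least 5 CPM, in order along chromosome 7 (top) and chromosome 17 (bottom); red and blue points were called higher and lower in B, the black line is a running median of 21 genes, and the dashed lines mark the ends of the first 40 Mb and the first 10 Mb. The running median sits near -0.58 before the line on chromosome 7 and near 0.58 before the line on chromosome 17, and near 0 after both.

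The chromosome 7 segment carries genes used to describe this leukaemia, named here after their values were seen. HOXA9, the homeobox factor that drives self-renewal in leukaemias with KMT2A fusions, was at 87.6 CPM in A0 and 41.8 in B0, 68.0 in A3 and 48.2 in B3, and 75.5 in A5 and 45.7 in B5 (log2 difference -0.76 ± 0.12; edgeR adjusted p = 0.000376). HOXA10, its neighbour, was at 63.7, 67.1 and 66.3 CPM in A and 33.2, 41.5 and 37.6 in B. Neither overlapped between the letters, and HOXA9 and HOXA10 both share exon positions with HOXA10-AS. HOXA5 had a difference of -0.82 ± 0.19 (edgeR adjusted p = 0.0128), which was not called without the day 3 pair (0.162). FSCN1, the actin-bundling protein fascin, was at 391, 343 and 385 CPM in A and 188, 179 and 183 in B, a difference of -1.02 ± 0.09. ANLN, the cytokinesis scaffold anillin, was at 65.0 and 24.6 CPM in controls, 27.3 and 10.7 at day 3, then 42.8 and 17.04 at day 5. Its shift of -1.36 was wider than the segment's median. EIF2AK1, the haem-regulated eIF2-alpha kinase, and IGF2BP3, an oncofetal RNA-binding protein, were lower by 0.69 and 0.90.

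Genes of the chromosome 17 segment are likewise named after their values were seen. ACADVL, a mitochondrial fatty acid dehydrogenase, was at 178, 260 and 242 CPM in A and 353, 401 and 381 in B (0.75 ± 0.10). CXCL16, a membrane chemokine, and PIK3R5, a regulatory subunit of phosphoinositide 3-kinase gamma, were higher by 1.77 and 1.01 on the log2 scale. RABEP1, an endosome protein close to the segment's median, was higher by 0.58.

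CAMKK1, the kinase that activates other calcium/calmodulin-dependent kinases, also lies in that segment and was at 3.40, 2.50 and 1.98 CPM in A and 9.11, 12.4 and 9.34 in B (1.98 ± 0.26; edgeR adjusted p = 7.57e-05). Of 11 tested genes of the calmodulin and CaM kinase list, 2 were higher in B and 2 lower, with a median of -0.07. CAMK1D was at 47.0, 38.9 and 44.0 CPM in A and 32.6, 24.5 and 29.8 in B, a difference called by edgeR (adjusted p = 0.00437) but not without the day 3 pair (0.0881). CAMK2B, another isoform of the targeted kinase, was higher in B in each pair but at no more than 4.51 CPM, and CAMK1 was lower at no more than 1.73 CPM, not called without the control pair (edgeR adjusted p = 0.0502) or the day 3 pair (0.188). CAMK2G was at 61.5 to 80.9 CPM in all libraries (difference -0.14, edgeR adjusted p = 0.535).

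Genes of the p53 response were higher in B. Of 22 p53 targets tested, 12 were called higher and 0 lower, beside 4.08% of all genes higher, and the median difference was 0.44 beside 0.00. CDKN1A, which encodes the cell cycle inhibitor p21, was at 461 CPM in A0 and 891 in B0, 583 in A3 and 1127 in B3, and 764 in A5 and 1808 in B5. B was above A by about the same factor in each pair (1.05 ± 0.10; edgeR adjusted p = 2.55e-06), and the level of CDKN1A was higher after induction in both letters. BTG2, an antiproliferative gene, was at 20.5 and 44.1 CPM in controls, 8.81 and 23.6 at day 3, then 12.3 and 48.2 at day 5 (1.49 ± 0.16; edgeR adjusted p = 1.47e-05).

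The other called members took part in different arms of the response. ZMAT3, an RNA-binding target, was at 25.4, 29.3 and 53.5 CPM in A and 44.7, 44.5 and 87.3 in B. BBC3, the death-promoting protein PUMA, was at 25.1, 33.9 and 51.4 CPM in A and 52.1, 51.9 and 68.6 in B. Both were higher in B within every pair. FDXR (0.58), BAX (0.58), MDM2 (0.43), XPC, DDB2, RRM2B, GADD45A and POLH were also called, and they cover mitochondrial electron transfer, cell death, p53 turnover, and DNA repair or damage tolerance. BAX and PHLDA3 had a wider difference in the control pair than after induction: BAX was at 91.4 and 187 CPM in controls, 200 and 250 at day 3, then 222 and 290 at day 5. Leaving out the day 3 pair reduced the called members to 6, beside 282 of 14112 genes called higher in that fit. MDM2 and FDXR were among those lost (edgeR adjusted p = 0.253 and 0.0517). MDM2 was not called without the day 5 pair either (0.157), and none of the 22 lies in the shifted segments.

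Genes of the replication machinery were lower. Of 29 G1/S genes, 14 were called lower in B and 0 higher, beside 2.87% of all genes, with a median difference of -0.39. Medians over the list were -0.34 in the control pair, -0.21 at day 3 and -0.65 at day 5. Without the day 5 pair 7 members were called lower, beside 314 of 14158 genes tested in that fit. None of the 29 lies in the shifted segments. CCND1, the G1 cyclin D1, was at 7.45, 11.7 and 8.49 CPM in A and 0.863, 0.550 and 0.765 in B (-3.62 ± 0.33; edgeR adjusted p = 1.27e-06), without overlap. It shares exon positions with LTO1.

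RRM2, the regulated subunit of ribonucleotide reductase, was at 50.6 and 29.004 CPM in controls, 39.7 and 28.3 at day 3, then 43.6 and 17.3 at day 5 (-0.87 ± 0.15; edgeR adjusted p = 0.00142). MCM3, of the replicative helicase, was at 372 and 279 CPM in controls, 345 and 251 at day 3, then 264 and 162 at day 5. CDC6, which loads that helicase, was at 66.6, 67.5 and 60.4 CPM in A and 49.6, 46.4 and 35.5 in B. For these genes A lay above B in each pair. The other members called were the helicase subunits MCM2, MCM4 and MCM5, the loading factor CDT1, the replication factors MCM10 and CDC45, the enzyme TYMS, and CCNE2, E2F2 and SLBP. Of these, MCM4 was not called without the day 5 pair (edgeR adjusted p = 0.0827). The cyclins CCND2 (0.20, adjusted p = 0.371) and CCND3 (0.05, adjusted p = 0.862) and the kinase CDK4 (0.04, adjusted p = 0.892) did not pass the edgeR test.

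**Figure D3:**
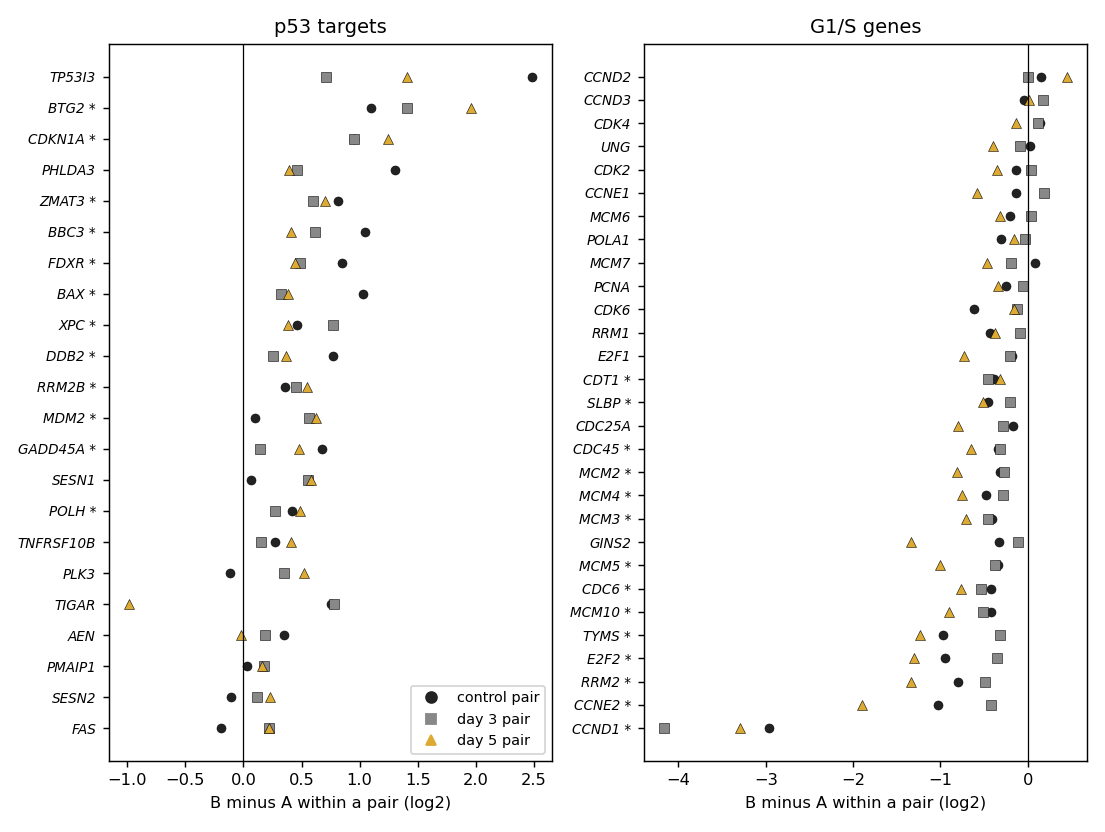
B minus A log2 difference of each member of the p53 list (left) and the G1/S list (right) in the control pair (black circles), the day 3 pair (grey squares) and the day 5 pair (yellow triangles); an asterisk marks members called by edgeR across the 3 pairs. Of the p53 list 17 of 22 members lie above 0 in all 3 pairs, and of the G1/S list 21 of 29 lie below 0 in all 3. The share of all genes on one side in all 3 pairs was not counted, so these are descriptions without a background.

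Mitotic genes followed with fewer calls. Of 28 G2/M genes 7 were lower and 1 higher, with a median of -0.32. When the control pair was left out 13 were called lower, beside 451 of 13899 genes tested in that fit. MKI67, the proliferation marker Ki-67, was at 496 CPM in A0 and 229 in B0, 181 in A3 and 136 in B3, and 334 in A5 and 200 in B5. The difference was widest in the control pair. CENPF, a kinetochore protein, was at 52.0, 44.7 and 97.3 CPM in A and 27.1, 28.0 and 56.9 in B (-0.80 ± 0.11; edgeR adjusted p = 0.000128). CCNA2, CDK1 and TOP2A were lower by 0.63, 0.49 and 0.47, and CDK1 was not called without the day 5 pair (edgeR adjusted p = 0.107). AURKB, the 1 member higher in B (0.43; edgeR adjusted p = 0.0442), is also the 1 member on the chromosome 17 segment, and it was not called without the control pair (0.221) or the day 3 pair (0.219).

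Interferon-stimulated genes had a median difference near 0 in the control pair and were higher in B after induction. In the control pair the median B minus A difference of the 40 genes on the list was -0.003, and it was 1.58 at day 3 and 1.48 at day 5. From control to day 3 the list's median change was 0.64 in A and 2.44 in B, and from control to day 5 it was 0.44 in A and 1.93 in B. The list took 0.118%, 0.127% and 0.102% of all counts in A0, A3 and A5, and 0.120%, 0.334% and 0.263% in B0, B3 and B5.

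Across the 3 pairs 13 of the 40 were called higher in B and 0 lower. Without the control pair 33 were called higher, beside 669 of 13899 genes tested in that fit. The test of the change itself, whether the B minus A difference after induction departs from that in controls, called 389 of 14601 genes (2.66%), 158 upward (1.08%) and 231 downward (1.58%). It called 21 of the 40 upward and 0 downward. That test had 1 residual degree of freedom, so edgeR took the spread as shared across genes. DESeq2 on the same design called 32 genes upward and 76 downward, 11 of the 40 among the former.

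OAS3, an oligoadenylate synthetase that activates RNase L, was at 4.88 CPM in A0 and 3.45 in B0, 14.6 in A3 and 91.2 in B3, and 6.62 in A5 and 72.2 in B5. The 2 induced B libraries stood above all 4 others (interaction 3.50 on the log2 scale; edgeR adjusted p = 4.89e-21). IRF7, the factor that amplifies interferon production, was at 22.3 and 22.2 CPM in controls, 40.1 and 121 at day 3, then 15.7 and 89.1 at day 5. Its interaction (2.02) was called by edgeR (adjusted p = 3.2e-15) but not by DESeq2 (adjusted p = 0.253). STAT2 had a smaller interaction of 0.63, called by edgeR (adjusted p = 0.0311) and not by DESeq2 (adjusted p = 0.452). IFI27 was at 0.450 and 0.0479 CPM in controls, 0.156 and 12.3 at day 3, then 0.340 and 19.3 at day 5. IFI44L was at 0 counts in both controls, 2.40 and 31.1 CPM at day 3, then 0.113 and 33.7 at day 5. HELZ2 and LY6E were at or above the B level in the A control and below it after induction: LY6E went from 175 and 84.8 CPM in controls to 228 and 312 at day 3, then 181 and 243 at day 5.

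In all 3 pairs 18 of the 40 members were higher in B, a description with no share of all genes counted beside it. IFIT1, which binds foreign RNA ends, was at 0.193 and 0.575 CPM in controls, 12.1 and 76.8 at day 3, then 6.51 and 27.7 at day 5 (2.37 ± 0.19; edgeR adjusted p = 5.57e-07). OASL was at 0.0642 and 0.719, 13.9 and 67.2, and 4.75 and 20.6 CPM in the same order. UBE2L6, the ISG15-conjugating enzyme, was at 2.51 and 9.68, 18.9 and 52.0, and 17.5 and 42.5 CPM. In both letters these genes were higher after induction, and within each pair B exceeded A. BST2 (tetherin) was at 171 and 263 CPM in controls and at 114 to 290 CPM after induction (0.87 ± 0.10). XAF1 (1.19) lies on the chromosome 17 segment. OAS2, at 0 and 0.479 CPM in controls, 22.8 and 273 at day 3, then 4.64 and 168 at day 5, was near the threshold (edgeR adjusted p = 0.0466) and was not called without the control pair (0.294).

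**Figure D4:**
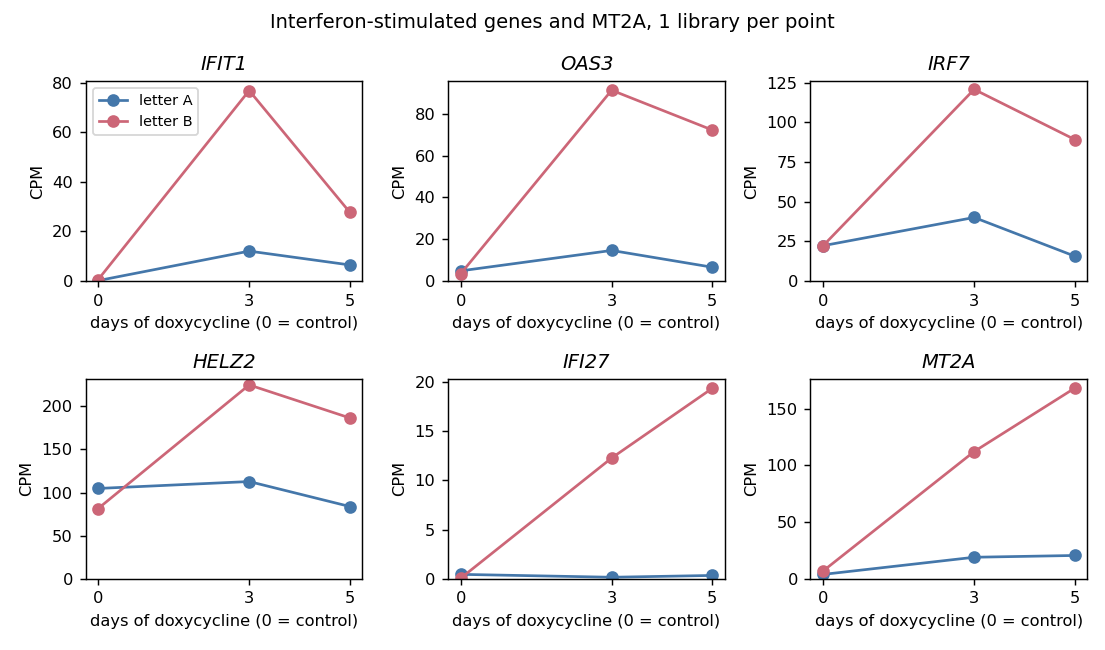
CPM of IFIT1, OAS3, IRF7, HELZ2, IFI27 and MT2A against days of doxycycline (0 for the controls), with A libraries in blue and B libraries in red and 1 library per point. The controls of IRF7 lie together at 22.3 and 22.2 CPM, and the B libraries lie above the A libraries at days 3 and 5 for every gene shown.

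Promoters of the list were searched for the core of the interferon-stimulated response element, GAAANNGAAA, on both strands (TTTCNNTTTC on the other), in the 250 bases before the RefSeq gene start (GRCh38.p14). RefSeq promoters were matched for 33 of the 40 genes; IFIT2, MX2, OAS2, OASL, IFITM2, TRIM22 and USP18 were not matched. A match stood in 19 of the 33 (57.6%) and in 1061 of 35116 promoter entries of all genes (3.02%). The first entry was taken for each list gene, while every entry was counted for all genes, so the shares are not counted alike. The list was made of interferon-stimulated genes, so its higher share is no result about the letters. The promoters of the 3 matched genes with the widest mean B minus A difference over days 3 and 5 are shown, 5′ to 3′ on the gene's strand, with matches in capitals: IFI27 (chr14:94110486-94110735, plus strand), IFI44L (chr1:78620198-78620447, plus strand) and EPSTI1 (chr13:42992242-42992491, minus strand).
IFI27: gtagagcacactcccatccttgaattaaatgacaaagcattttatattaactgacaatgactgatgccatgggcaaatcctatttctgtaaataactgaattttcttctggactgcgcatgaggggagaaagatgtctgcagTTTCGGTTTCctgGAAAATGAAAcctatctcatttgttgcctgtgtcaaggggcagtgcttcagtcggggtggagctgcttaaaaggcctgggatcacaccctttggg
IFI44L: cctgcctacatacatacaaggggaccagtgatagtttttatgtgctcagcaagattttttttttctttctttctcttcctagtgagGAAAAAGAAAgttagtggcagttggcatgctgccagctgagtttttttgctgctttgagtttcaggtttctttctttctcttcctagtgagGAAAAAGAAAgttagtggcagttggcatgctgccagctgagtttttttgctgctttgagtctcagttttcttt
EPSTI1: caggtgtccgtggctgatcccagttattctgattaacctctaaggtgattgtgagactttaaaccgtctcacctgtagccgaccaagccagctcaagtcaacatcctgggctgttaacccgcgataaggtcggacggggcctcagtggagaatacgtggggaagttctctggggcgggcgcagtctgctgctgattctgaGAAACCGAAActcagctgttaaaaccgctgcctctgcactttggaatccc
Matches began 108 and 95 bases before the IFI27 start, 164 and 73 bases before the IFI44L start, and 50 bases before the EPSTI1 start. EPSTI1, an epithelial-stromal interaction gene induced by interferon, was at 0 counts in both controls, 3.96 and 23.2 CPM at day 3, then 0.226 and 15.3 at day 5. OAS1, MX1 and CMPK2, which also differed widely after induction, held no match in this window.

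Of 11 tested genes of class I antigen presentation, 4 were called higher in B and 0 lower, with a median of 0.20 and pair medians of 0.20, 0.23 and 0.08 in the control, day 3 and day 5 pairs. HLA-B, which presents peptides to T cells, was at 373 and 713 CPM in controls, 669 and 950 at day 3, then 575 and 950 at day 5 (0.72 ± 0.10; edgeR adjusted p = 0.000165). HLA-C was higher by 0.77. HLA-E (0.38) was not called without the day 3 pair (edgeR adjusted p = 0.112) or the day 5 pair (0.152), and HLA-F was called at no more than 2.91 CPM. Reads of these near-identical genes may be split between them by the counting.

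Metallothioneins, small zinc- and copper-binding proteins, separated the letters after induction. Of 8 tested genes of the metallothionein and zinc list 3 were called higher and 0 lower (median 1.09). MT2A was at 3.85 and 6.86 CPM in controls, 19.0 and 112 at day 3, then 20.5 and 168 at day 5. Its difference grew with induction (interaction 1.97; edgeR adjusted p = 2.09e-08), while the test across all 3 pairs did not call it (0.207). MT1G was at 1.73 and 3.55, 9.59 and 28.7, and 6.23 and 28.5 CPM and was called across the pairs (1.70 ± 0.21). MT1E (1.42) and MT1F (0.77) were called with all pairs and not without the day 3 pair (edgeR adjusted p = 0.169 and 0.275), nor was MT1F without the day 5 pair (0.148). These genes also have near-identical copies.

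Myeloid granule genes moved in both directions: of 17 tested, 5 were called higher and 1 lower, with a median of 0.22. MPO, the myeloperoxidase of primary granules, was at 662 CPM in A0 and 1219.9 in B0, 16.5 in A3 and 27.7 in B3, and 6.85 in A5 and 15.6 in B5. Its level was far lower after induction in both letters, and was higher in B in every pair (0.91 ± 0.11; edgeR adjusted p = 2.61e-05). SRGN, the granule proteoglycan serglycin, was higher by 0.61 but not called without the day 3 pair (edgeR adjusted p = 0.0867). PRTN3, proteinase 3, was higher by 0.97 but not called without the control pair (edgeR adjusted p = 0.347). CTSG, cathepsin G, was the exception, at 1404, 1362 and 895 CPM in A and 566, 651 and 429 in B (-1.15 ± 0.10; edgeR adjusted p = 1.03e-06), with no overlap.

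Among regulators, IRF8, a monocyte and dendritic cell factor, was at 355 and 515 CPM in controls, 439 and 683 at day 3, then 313 and 524 at day 5 (0.64 ± 0.10), and IRF5 was higher by 1.01. Both B minus A differences held within each pair. Immediate early genes held 4 higher and 0 lower of 27 tested, with a median of 0.20, among them FOSB (4.30 and 8.29 CPM in controls, 4.43 and 11.9 at day 3, 8.04 and 20.5 at day 5) and EGR1 (0.76). EGR1 was not called without the day 5 pair (edgeR adjusted p = 0.271). PIM1, a kinase gene induced by STAT5, was at 942 and 1140.4 CPM in controls, 188 and 331 at day 3, then 140 and 269 at day 5, and was not called without the day 3 pair (edgeR adjusted p = 0.0646). NEAT1, the RNA scaffold of paraspeckles, was at 26.9, 47.9 and 83.1 CPM in A and 57.5, 78.7 and 182 in B (0.98 ± 0.11). The adhesion genes ITGA4 and CD44 were lower by 0.39 and 0.46, and neither was called without the day 3 pair (edgeR adjusted p = 0.118 and 0.112). ITGA4 was not called without the day 5 pair either (0.0686), nor CD44 without the control pair (0.0854).

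Other lists had medians near that of all genes: -0.02 for 30 ribosome biogenesis genes, -0.01 for 28 glycolysis and hypoxia genes, -0.02 for 13 heat shock genes and 0.07 for 13 fatty acid genes. Of 25 sterol genes 1 was higher, and of 13 mitochondrial transcripts 1 was higher. Across the 10190 genes with a mean of at least 5 CPM, the change from control correlated between the letters at r = 0.821 at day 3 and 0.788 at day 5. These are again descriptions across genes that are not independent. The sets past 2-fold overlapped in part. Of the 10190 genes, 502 were at least 2-fold higher at day 3 than in control in A and 353 in B. The sets shared 199 genes, which is 39.6% of the A set and 56.4% of the B set. At day 5 the sets were 581 and 583 genes with 293 shared (50.4% and 50.3%). Of genes at least 2-fold lower than in control, 344 were shared at day 3 (62.2% of the A set and 72.7% of the B set) and 291 at day 5 (56.7% and 59.1%). Within 1 pair there is no test: at 5 CPM in the higher library, 289 genes were at least 2-fold higher in B0 than A0 and 125 lower (1.98% and 0.856% of genes tested), 201 and 85 at day 3 (1.38% and 0.582%), and 275 and 118 at day 5 (1.88% and 0.808%).

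The widest differences of single pairs, each 1 library against 1, added further genes. PKDCC, a secreted tyrosine kinase gene, was at 0.450 CPM in A0 and 9.92 in B0, and at 0.113 to 0.546 CPM in the other 4 libraries. DDR2, a collagen receptor, was at 10.1 CPM in A0 and 1.01 in B0 and at 0.219 to 1.08 CPM elsewhere. SIGLEC1, a macrophage lectin induced by interferon, was at 0.257 and 0.288 CPM in controls, 0.938 and 10.5 at day 3, then 0 and 14.0 at day 5. MPEG1, a perforin-like protein of macrophages, was at 3.34 and 2.49, 1.72 and 7.31, and 0.0566 and 11.6 CPM. For both, B3 and B5 stood above the other libraries. CYFIP2, of the WAVE actin complex, was at 0 counts in A0 and 6.38 CPM in B0, 4.59 and 24.0 at day 3, then 13.5 and 35.3 at day 5, so B was above A throughout.

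The control pair was set beside the induced pairs by transcript length and base composition. When genes with a mean of at least 5 CPM were grouped by summed exon length, the median B minus A difference of the control pair went from 0.23 in the shortest of 5 groups to -0.14 in the longest, against 0.07 to -0.03 at day 3 and 0.01 to -0.04 at day 5. By GC content of each gene's longest transcript it went from -0.18 in the lowest of 5 groups to 0.17 in the highest in the control pair. Cytosolic ribosomal protein genes took 12.2% of counts in A0 and 14.8% in B0, beside 17.4% in A3, 17.3% in B3, 15.5% in A5 and 15.4% in B5. Genes with summed exons under 1000 bases took 2.49% of counts in A0 and 2.36% in B0, beside 1.54% to 1.74% in the induced libraries. The 231 genes with a downward interaction had a median exon length of 2413 bases, beside 4503 for all tested genes. PFDN6, a prefoldin subunit, was at 26.2 CPM in A0 and 88.9 in B0, 101 and 135 at day 3, then 87.2 and 83.4 at day 5. EDF1, a ribosome-collision sensor, was at 65.1 and 187, 240 and 264, and 210 and 224 CPM. UBL5 and NDUFA1, a complex I subunit, had interactions of -1.35 and -1.82. A0 was the lowest library for each of these 4 genes. With the length and GC trends removed, the downward interaction calls went from 231 to 166 and the upward calls from 158 to 208. In the test across the 3 pairs, AURKB, HLA-E, MT1E, MT1F, PRTN3, EGR1, PIM1, ITGA4, CD44, CD36 and FCGR1A were then no longer called (edgeR adjusted p from 0.0516 for EGR1 to 0.145 for PRTN3). The part of RNA quality in these differences was not tested.

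**Figure D5:**
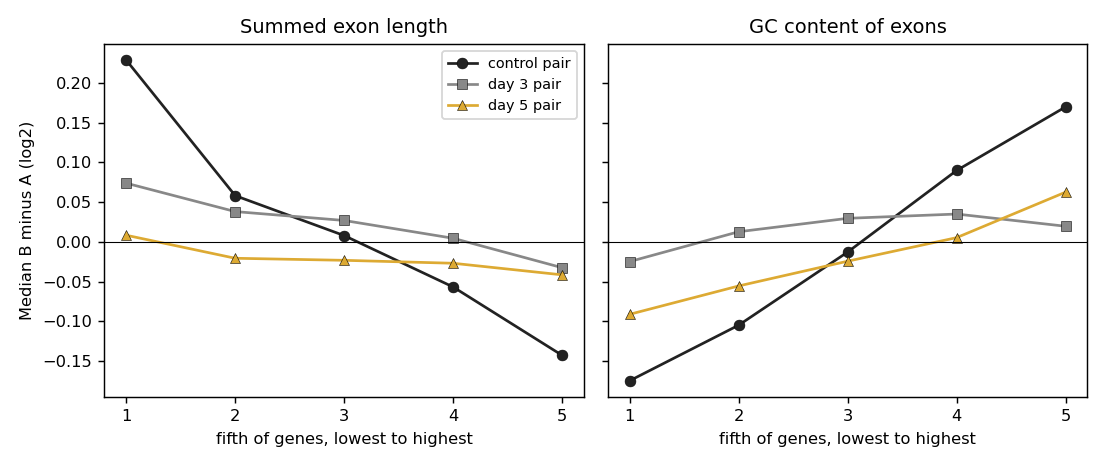
Median B minus A log2 difference of genes with a mean of at least 5 CPM in 5 groups by summed exon length (left) and by GC content of each gene's longest transcript (right), for the control pair (black circles), day 3 pair (grey squares) and day 5 pair (yellow triangles). The control pair runs from 0.23 to -0.14 across length and from -0.18 to 0.17 across GC content, while the induced pairs stay between -0.09 and 0.07.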

How the data were processed

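Poly-A RNA of 6 MOLM-13 libraries was analysed, with groups and letters taken from the labels. Raw read counts and FPKM of 24878 genes were deposited in 1 table, per the file headers; the submitters' processing notes list HISAT2, HTSeq 0.11.2, DESeq2 1.26.0 and GRCh38, and how reads were assigned to genes is not given in the sources used here. The library kit does not mark strand. All gene identifiers matched GENCODE 29, which gave positions, exon lengths and overlaps.

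Counts as deposited by the authors were fitted with edgeR 4.0.16 in R 4.3.3: TMM scaling (factors 0.962 to 1.04), a minimum count of 10 and total of 15, and a robust quasi-likelihood test of letter with the 3 conditions as a block (2 residual degrees of freedom). The letter by knockout interaction was fitted likewise (1 residual degree of freedom). P-values were adjusted over all 14601 genes (Benjamini-Hochberg, 0.05). Levels are TMM-scaled CPM, and differences within a pair carry a prior count of 2. In the shallowest library, 0 counts leave room for 0.194 CPM (3 counts, counting error only). An exact test over 3 pairs cannot go below p = 0.25, so none is reported. Both tests were tried on counts simulated with means and spread taken from the fit to these data. Of genes changed 2-fold, the letter test called 98 of 103 and the interaction test 36 of 90. Changes were set only in genes with a mean of at least 5 CPM. Spread followed the fitted trend with level, without further scatter between genes, so recovery in the real data may be lower.

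The letter is the quantity compared, so the condition, not the letter, served as the block.

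Named genes were CAMK2D, the 12 largest rises and falls called at a mean of 5 CPM on one side in all pairs, the 5 widest differences of each pair in each direction, up to 4 members per list, and the strongest interactions; others are named as chosen after their values were seen. A few genes are not reported here and were left out of the lists. The comparison, members and lists were chosen with earlier results of these data known. Alternatives were other scalings, filters, DESeq2 1.42.0, limma 3.58.1 on log2 FPKM with a pseudocount of 1 or 0.1, and each pair left out.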

Additional observations from a re-analysis of the deposited data

Results flagged for a closer look

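The genes here were picked out because the B minus A difference after induction departed from that in the control pair in the edgeR interaction test (adjusted p under 0.05), among genes named in the report. Each value is the interaction on the log2 scale.

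Interferon-related genes had positive interactions of 3.503 for OAS3, 2.019 for IRF7, 1.437 for HELZ2, 1.486 for LY6E, 9.034 for IFI27, 2.417 for IFI44, 1.509 for SAMD9L, 4.612 for SIGLEC1 and 0.6309 for STAT2. The value of IFI27 rests on levels under 0.5 CPM in the A libraries and B0, and is no measure of its fold change. The metallothioneins MT2A and MT1E had interactions of 1.969 and 1.646. The macrophage gene MPEG1 had 3.985, the lectin gene CD209 1.923, the receptor genes CCR1 and CD44 0.8686 and 0.5987, and PIM1 0.6062.

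Genes lower in B in the control pair, and less so after induction, were SLC9B2 (2.014), GBP5 (1.589) and MKI67 (0.5386). Negative interactions were found for the p53 targets BAX (-0.6791) and PHLDA3 (-0.8786) and for PFDN6 (-1.585), EDF1 (-1.404), UBL5 (-1.35) and NDUFA1 (-1.825), all lowest in A0. CYFIP2 had -8.02, a fitted value against 0 counts in A0.

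DESeq2 on the same design did not call the interactions of BAX, MKI67, IRF7, STAT2, CCR1 and CD44, and those of MKI67 and CD44 were also lost when the length and GC trends were removed. With limma on log2(FPKM + 1), most of the interactions flagged here were not kept.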

How the results depend on the processing

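The counts of 595 higher and 419 lower genes stayed within 1.5 times under other scalings, other count filters, DESeq2 (514 and 337), edgeR without robust estimation and, chosen after seeing the data, without the 2 chromosome segments (480 and 305) or with length and GC trends removed (493 and 347). With 1 pair left out they ranged from 282 to 669 higher and from 184 to 451 lower, the lowest without the day 3 pair. In the same way the p53 list had 6 to 14 members called, the G1/S list 7 to 18, the G2/M list 6 to 13, the interferon-stimulated list 7 to 33, the chromosome 17 segment 51 to 95 and the chromosome 7 segment 50 to 93. The letter fitted alone, with no block for the pair, called 3 genes higher and 1 lower (744 at an unadjusted p under 0.05): 0 of the p53, 1 of the G1/S, 0 of the G2/M and 0 of the interferon-stimulated list and 0 in either segment. With limma on log2(FPKM + 1), 155 and 87 genes were called, with 3, 3, 2 and 4 of those lists in that order and 38 and 39 in the segments. With log2(FPKM + 0.1) these were 142 and 76, then 3, 2, 1 and 5, then 35 and 37. Without a filter limma called 0 genes at all (2214 at an unadjusted p under 0.05), among 24878 tested. The interferon-stimulated list had 24 called with no count filter and 27 without robust estimation. Interaction calls were 158 and 231; DESeq2 gave 32 and 76 with 11 interferon-stimulated genes, and limma 18 and 61 with 7. The interaction of CYFIP2 reversed to 0.3844 with limma (adjusted p = 0.796). Interactions without 1 pair leave no residual degrees of freedom and were not run. The 2-fold counts in the control, day 3 and day 5 pairs depend on the floor and the fold: at 1 CPM they were 680, 526 and 850 higher and 298, 374 and 493 lower, at 20 CPM 123, 83 and 91 higher and 49, 14 and 30 lower, and at 3-fold 82, 80 and 100 higher and 38, 26 and 28 lower. The causes of these changes were not tested.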
